A study of Mus musculus with 17 samples.

Results

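Dendritic cells take up antigen in tissues and present it to T cells, and plasmacytoid dendritic cells are a separate branch known for releasing type I interferon. The 10 genes described here are Spib, Siglech, Ccr9, Tcf4, Irf8, Flt3, Zbtb46, Xcr1, Clec9a and Cd209a, which are used to recognise these cells. They were picked by name, with earlier results of these data known, out of 38087 genes in the deposited table, and each symbol was on 1 row. Their values chose them in part, so the levels below are a description and no test was made.

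Plasmacytoid dendritic cells depend on the transcription factor TCF4, which binds E-box sequences, and carry the lectin Siglec-H and, in many tissues, the chemokine receptor CCR9. Conventional dendritic cells depend on the growth factor receptor FLT3, express the transcription factor ZBTB46 and fall into an XCR1-positive, CLEC9A-positive branch that needs IRF8 and a branch that in mice includes CD209A-positive cells. Mouse plasmacytoid dendritic cells and inflammatory monocytes both carry Ly6C on their surface.

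RNA was sequenced from leukocytes of tibialis anterior muscle injured with cardiotoxin, a venom component that destroys fibres, in male DBA/2J mice of 3 months. The 17 samples comprise 2 of neutrophils (day 1), 9 of Ly6C high macrophages (3 on each of days 1, 2 and 4) and, on days 2 and 4, 3 of Ly6C low macrophages each. The labels name no genetic change or drug, no uninjured muscle and no sorting marker besides Ly6C, and they do not say whether muscles were pooled. The authors' table gives log2 normalised reads once for each group. Errors, replicate checks and tests against the spread of samples were therefore out of reach, and every difference is a size only. A log2 difference of 1 is a 2-fold difference.

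Csf1r, the macrophage growth factor receptor, lay between 13.27 and 14.71 in all 6 columns, the neutrophil column included. The neutrophil surface marker Ly6g had 3.48 in neutrophils and 0 in each macrophage column. Other neutrophil genes were present in macrophage columns. In Ly6C high cells of day 1, S100a8 was at 9.34 and S100a9 at 9.64, against 14.35 and 15.49 in neutrophils. Mmp8 was at 9.21 there, against 9.30. Of 7 neutrophil markers that reached 5 in either of these columns, 6 were at least 2-fold lower in the Ly6C high cells and 0 higher. The part of neutrophil RNA in the macrophage columns was not tested. Ly6c2 ranged from 9.65 to 10.56 over the Ly6C high columns and from 4.64 to 6.16 over the Ly6C low ones. Part of the low values, 11.5 to 44.2% of low genes depending on the column, lay on steps of whole reads of 1 library. In the library that gave the clearest steps of each column, 1 read was worth 0.4123 to 1.0258 normalised units. There, 31.2 to 77.6 reads made up a log2 value of 5 (counting error 11.4 to 17.9%), and 7.8 to 19.4 reads a log2 value of 3.

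The stretch before the transcription start of Siglech, Ccr9 and Spib is shown because these genes moved together below, and that of Xcr1 and Cd209a because those did not move with them. The sequences are RefSeq's on GRCm38.p6, 5′ to 3′ on the gene's strand. Each begins 250 bases before the start and stops at the start or at the first annotated exon, and capitals mark each E-box, CANNTG, found on either strand. The start used for Ccr9 lies inside the gene, 88772 bases from the gene start in the GENCODE M21 annotation.
Siglech (chr7:55767934-55768177, plus strand): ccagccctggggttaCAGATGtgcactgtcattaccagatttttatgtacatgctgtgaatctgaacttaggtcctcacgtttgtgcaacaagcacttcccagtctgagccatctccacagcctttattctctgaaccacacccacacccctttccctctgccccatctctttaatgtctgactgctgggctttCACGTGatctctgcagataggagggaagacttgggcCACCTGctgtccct
Ccr9 (chr9:123766961-123767168, plus strand): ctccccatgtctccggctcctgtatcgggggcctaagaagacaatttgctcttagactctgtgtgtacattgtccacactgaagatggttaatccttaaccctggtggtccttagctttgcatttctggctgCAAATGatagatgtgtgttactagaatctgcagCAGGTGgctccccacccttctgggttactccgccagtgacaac
Spib (chr7:44532072-44532321, minus strand): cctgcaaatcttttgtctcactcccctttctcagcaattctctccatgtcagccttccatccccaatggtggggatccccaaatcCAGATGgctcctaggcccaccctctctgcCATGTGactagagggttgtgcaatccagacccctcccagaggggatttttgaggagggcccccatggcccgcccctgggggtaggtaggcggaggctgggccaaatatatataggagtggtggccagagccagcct
Xcr1 (chr9:123862030-123862279, minus strand): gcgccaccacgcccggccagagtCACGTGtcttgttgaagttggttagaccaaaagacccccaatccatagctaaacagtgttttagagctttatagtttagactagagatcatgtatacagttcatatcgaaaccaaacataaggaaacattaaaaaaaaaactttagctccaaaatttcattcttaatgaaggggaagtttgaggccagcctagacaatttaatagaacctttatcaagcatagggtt
Cd209a (chr8:3748985-3749234, minus strand): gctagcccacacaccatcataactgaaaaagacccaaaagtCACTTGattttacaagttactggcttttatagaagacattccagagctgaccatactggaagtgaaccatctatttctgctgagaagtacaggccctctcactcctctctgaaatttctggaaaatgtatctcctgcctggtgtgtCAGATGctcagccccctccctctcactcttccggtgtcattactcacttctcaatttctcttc

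Siglech held 3 E-boxes, at positions -235, -56 and -20 counted from the start, Ccr9 and Spib held 2 each, Xcr1 held 1 and Cd209a 2. Of 32851 promoter windows of 250 bases in the RefSeq table, 66.2% held CANNTG. The form CAGGTG, or CACCTG on the other strand, which E proteins such as TCF4 bind well and which is itself a CANNTG, was in 17.2% of all windows. It was in 4 of the 10 windows of the members, those of Siglech at -20, of Ccr9 at -85, of Zbtb46 at -238 and of the downstream start of Irf8 at -205. The starts used for Ccr9, Zbtb46 and this Irf8 window lie inside the gene, 88772, 35038 and 2281 bases from its GENCODE M21 start. Neither the Ets-IRF composite (GGAA, any 2 bases, GAAA) nor the interferon response element (GAAA, any 2 bases, GAAA) was in a window of a member on either strand, against 2.3 and 3.0% of all windows. These are matches of letters in a short window and show no binding. The table had a start for 9 of the 10 genes, and none for Tcf4.

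Siglech, Ccr9 and Spib were highest in Ly6C high cells of day 4 and low in both Ly6C low columns. Siglech (ENSMUSG00000051504, chromosome 7, 55768178 to 55778925, GRCm38), which encodes the sialic acid-binding lectin Siglec-H, had values in Ly6C high cells of 6.65, 7.03 and 9.51 on the log2 scale, in the order of days 1, 2 and 4 used throughout. In Ly6C low cells it was at 3.31 (day 2) and 3.99 (day 4), and in neutrophils at 4.84. All 3 Ly6C high columns thus lay above the other columns for Siglech. Ccr9 (ENSMUSG00000029530, chromosome 9, 123678439 to 123784330), a chemokine receptor that guides cells to the gut and thymus, was at 5.63, 5.99 and 8.51 in Ly6C high cells, at 2.64 and 3.26 in Ly6C low cells and at 4.79 in neutrophils. Its order over the columns was that of Siglech.

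Spib (ENSMUSG00000008193, chromosome 7, 44525993 to 44532071), an Ets family transcription factor of plasmacytoid dendritic cells and B cells, was at 6.77, 7.01 and 9.73 in Ly6C high cells. It was at 3.23 and 3.34 in Ly6C low cells and at 1.82 in neutrophils, its lowest value. The value of Siglech minus that of Spib was -0.12, 0.02 and -0.21 in the 3 Ly6C high columns, and 3.02 in neutrophils. Siglech minus Ccr9 was 1.02, 1.04 and 1.00 in the Ly6C high columns, 0.66 and 0.73 in the Ly6C low columns and 0.05 in neutrophils. So within the Ly6C high columns the ratios among these genes shifted by under 2-fold while each gene changed more than 5-fold from day 2 to day 4. With GENCODE M21, 2.62% of the exon bases of Ccr9 are shared with the noncoding gene Gm17200, which lay between 4.69 and 5.20 in all columns, and 18.83% with an antisense noncoding gene. The kit is not stated to keep strand, so reads there cannot be told apart.

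**Figure D1:**
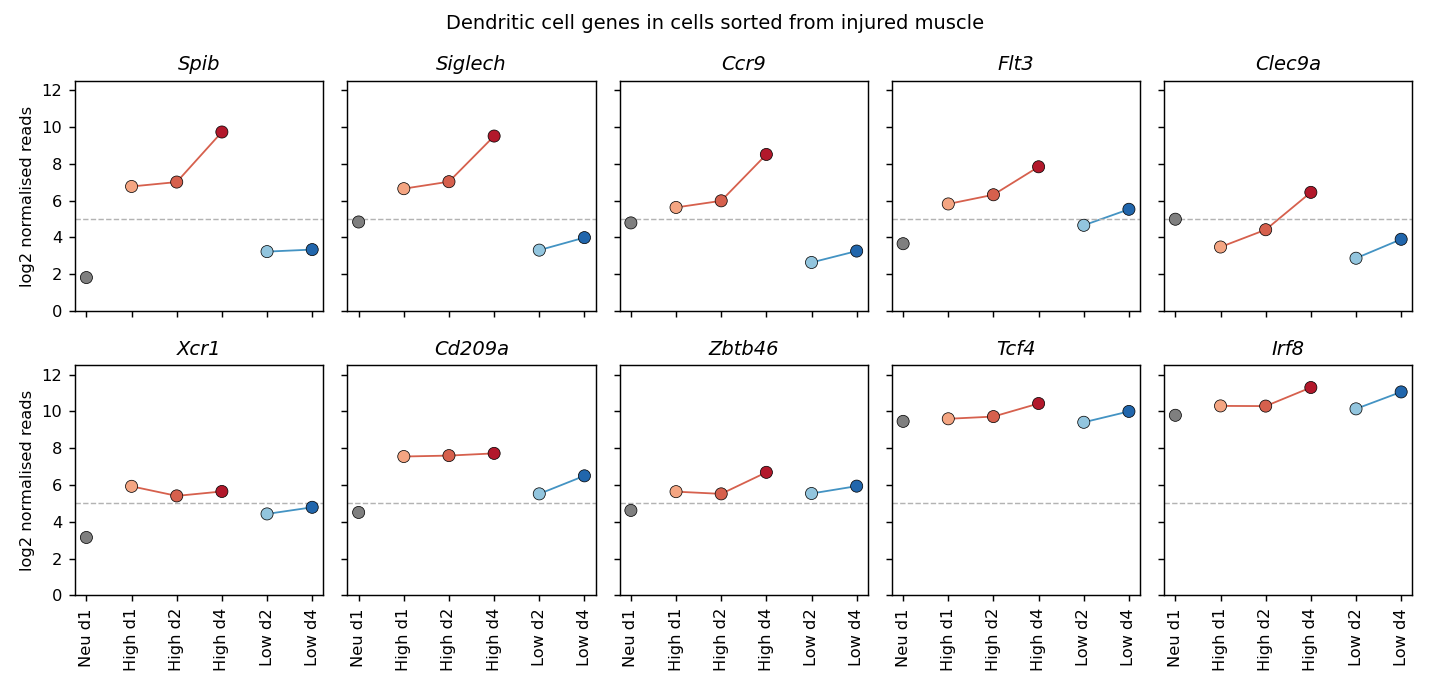
Log2 normalised reads (vertical axis, the authors' value per group) of the 10 genes in the 6 groups (horizontal axis, neutrophils as Neu d1). Each point is 1 group and lines join the days of a subset. There are no error bars because single samples were not used, and the dashed line is the minimum of 5 used for comparisons. Spib, Siglech and Ccr9 reach 9.73, 9.51 and 8.51 in Ly6C high cells of day 4 and lie between 2.64 and 3.99 in Ly6C low cells, while Tcf4 and Irf8 stay between 9.41 and 11.30.

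The transcription factors Tcf4 and Irf8 were present in every column, above 9 on the log2 scale, and were within 2-fold between the subsets on both days. Tcf4 (ENSMUSG00000053477, chromosome 18, 69343356 to 69689079) was at 9.60, 9.72 and 10.43 in Ly6C high cells and at 9.46 in neutrophils. In Ly6C low cells it was at 9.41 on day 2 and 0.59 higher on day 4, and the widest gap between its columns was 1.02. Irf8 (ENSMUSG00000041515, chromosome 8, 120736358 to 120756694), which monocytes and macrophages also use, was at 10.30, 10.29 and 11.30 in Ly6C high cells, at 10.14 and 11.06 in Ly6C low cells and at 9.79 in neutrophils. Both were higher on day 4 than on day 2 in each subset, by 0.71 and 1.01 among Ly6C high cells and by 0.59 and 0.92 among Ly6C low cells. The columns of Irf8 spanned 1.51, from neutrophils to Ly6C high cells of day 4. In Ly6C low cells Tcf4 was 0.31 below Ly6C high on day 2 and 0.43 below on day 4, and Irf8 0.15 and 0.24 below.

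Flt3 and Zbtb46 belong to the conventional branch, Flt3 also to the plasmacytoid branch. Flt3 (ENSMUSG00000042817, chromosome 5, 147330741 to 147400489) was at 5.82, 6.32 and 7.84 in Ly6C high cells, at 4.66 and 5.53 in Ly6C low cells and at 3.66 in neutrophils. Its order of columns was that of Spib, with smaller gaps. Zbtb46 (ENSMUSG00000027583, chromosome 2, 181387762 to 181459426), which endothelial cells also express, was at 5.64, 5.52 and 6.69 in Ly6C high cells, at 5.54 and 5.94 in Ly6C low cells and at 4.62 in neutrophils. On day 2 its values in Ly6C high and Ly6C low cells were 0.02 apart.

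Xcr1 and Clec9a, which mark the same branch of conventional dendritic cells, did not share a pattern. Xcr1 (ENSMUSG00000060509, chromosome 9, 123852315 to 123862029), the receptor of the chemokine XCL1, was at 5.93, 5.41 and 5.65 in Ly6C high cells, at 4.43 and 4.79 in Ly6C low cells and at 3.15 in neutrophils. Of the stretches of 50 bases in Xcr1 transcripts, 1.63% recur in transcripts of other genes, and the part of those genes was not tested. Clec9a (ENSMUSG00000046080, chromosome 6, 129408862 to 129424763), a lectin that binds the actin of dead cells, was at 3.48, 4.42 and 6.45 in Ly6C high cells, at 2.87 and 3.90 in Ly6C low cells and at 4.99 in neutrophils. Clec9a was the member whose neutrophil value ranked highest, above 4 of the 5 macrophage columns. In GENCODE M21 it shares 5.59% of its exon bases with Clec1b, a lectin gene on the same strand. Clec1b was at 5.94 in neutrophils and between 1.12 and 3.82 elsewhere, and its part in the neutrophil value of Clec9a was not tested.

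Cd209a (ENSMUSG00000031494, chromosome 8, 3743397 to 3748984), a pathogen-binding lectin, was at 7.55, 7.60 and 7.72 in Ly6C high cells, at 5.52 and 6.50 in Ly6C low cells and at 4.51 in neutrophils. Its Ly6C high values stayed within 0.17 over the 3 days, unlike those of Siglech. Xcr1 was close to Cd209a in pattern, at a root mean square distance of 0.38 between the values of the 6 columns, each centred on the gene's mean. For comparison, Siglech was at 0.35 from Ccr9, 1.13 from Spib and 1.68 from Xcr1, Tcf4 at 0.23 from Irf8, and Xcr1 at 1.44 from Clec9a. No stretch of 50 bases of a Cd209a transcript recurs in another gene's transcripts in GENCODE M21. Among paralogs of Cd209a, chosen after their values were seen, Cd209d was at 4.79, 5.41 and 6.73 in Ly6C high cells and at 3.09 and 2.98 in Ly6C low cells. The paralogs Cd209b, Cd209c, Cd209e, Cd209f and Cd209g stayed under 5 in all columns and did not share a direction. In Ly6C low cells of day 4, Cd209f was at 4.07 and Cd209g at 2.93, against 2.33 and 1.23 in Ly6C high cells. Cd209c was at 2.92 against 4.11, Cd209e at 1.07 against 2.84 and Cd209b at 2.26 against 2.20.

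Taking the Ly6C high columns over time, no member compared was 2-fold apart between days 1 and 2, and most were higher on day 4. A gene entered a comparison if either column reached 5 on the log2 scale, and the comparisons share columns with each other. Between days 1 and 2, 0 of the 9 members compared were at least 2-fold apart, against 2.51% of all 11232 genes compared (1.41% higher and 1.1% lower). A count of 0 among so few genes is close to that share and says little about the members. Spib was higher on day 2 by 0.24, Siglech by 0.38, Ccr9 by 0.36 and Flt3 by 0.49, and Xcr1 was lower by 0.52. Clec9a, under the minimum on both days, was at 3.48 on day 1 and 4.42 on day 2. Between days 2 and 4, 7 of 10 were at least 2-fold higher on day 4 and none lower, against 14.3% higher and 2.0% lower among all 12348 genes, 16.3% in all. Their median difference was 1.34, against 0.01 over all genes compared.

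Spib was 6.58-fold higher on day 4 than on day 2, Ccr9 5.76-fold and Siglech 5.59-fold. Clec9a was 4.06-fold, Flt3 2.87-fold, Zbtb46 2.24-fold and Irf8 2.02-fold higher. Zbtb46 and Irf8 lay close to the 2-fold limit, and Zbtb46 was under it, at 0.66 on the log2 scale, after quantile normalization. Xcr1 and Cd209a differed by 0.24 and 0.12, and both had the opposite sign, -0.48 and -0.05, after quantile normalization. From day 1 to day 4 the count was also 7 of 10 higher, against 17.6% of all 12391 genes (3.97% were lower, 21.6% either way), with Clec9a at 7.82-fold and Spib at 7.79-fold. After quantile normalization 6 were higher and 1 lower there, with Clec9a at 2.21 in place of 2.97 on the log2 scale and Xcr1 at -1.03 in place of -0.28. In Ly6C low cells 0 of the 5 members compared were 2-fold apart between days 2 and 4, against 11.4% of 11824 genes (9.23% higher and 2.16% lower). All 5 were still higher on day 4, by 0.4 to 0.98, with a median of 0.87 against 0.03 over all genes compared. Spib, under the minimum of 5 on both days, differed by 0.11, at 3.23 and 3.34.

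Between the subsets, Spib, Siglech, Ccr9, Flt3 and Cd209a were at least 2-fold lower in Ly6C low cells on both days, and Tcf4, Irf8, Zbtb46 and Xcr1 were within 2-fold on both. Xcr1 lay close to that limit, 1.96-fold lower in Ly6C low cells on day 2 and 1.82-fold lower on day 4. On day 2, 5 of 9 members compared were at least 2-fold lower, against 4.03% of all 11482 genes (3.71% were higher, 7.74% either way), with Spib 13.7-fold, Siglech 13.2-fold, Ccr9 10.2-fold, Cd209a 4.23-fold and Flt3 3.15-fold lower. With a pseudocount of 5 the log2 difference of Ccr9 was -2.61 in place of -3.34. On day 4, 6 of 10 were lower and none higher, against 8.93% lower and 2.44% higher among 12438 genes, 11.4% in all. Spib was 83.6-fold, Siglech 45.9-fold and Ccr9 38.1-fold lower, followed by Clec9a at 5.83-fold, Flt3 at 4.95-fold and Cd209a at 2.32-fold. The folds of Spib, Siglech and Ccr9 rest on Ly6C low values of 3.34, 3.99 and 3.26, under the minimum of 5. With a pseudocount of 5 their log2 differences were -5.82, -5.14 and -4.67, in place of -6.38, -5.52 and -5.25. The median difference of the members was -1.66 on day 2 and -1.76 on day 4, against -0.03 over all genes on each day. The gap between subsets was wider on day 4 by 2.61 for Spib, 1.91 for Ccr9 and 1.80 for Siglech on the log2 scale, and narrower by 0.86 for Cd209a. In bulk RNA, fewer cells of a type and less RNA per cell cannot be told apart.

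**Figure D2:**
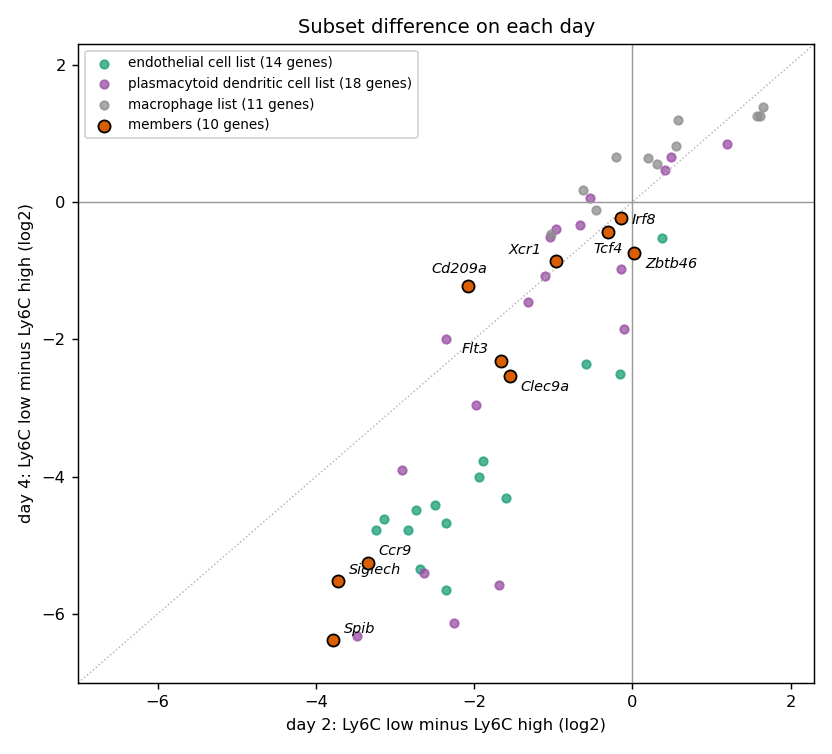
Difference between Ly6C low and Ly6C high cells on day 2 (horizontal axis, log2) and on day 4 (vertical axis, log2), 1 point per gene, for the 10 members and for genes of the plasmacytoid dendritic cell, endothelial and macrophage lists. Points below the dotted diagonal were lower in Ly6C low cells by more on day 4 than on day 2. Spib, Siglech and Ccr9 lie at -6.38, -5.52 and -5.25 on the day 4 axis, Spib below and the other two within the range of the endothelial genes, and Tcf4 and Irf8 lie near 0 on both axes.

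Ly6C high cells of day 1 were also set against neutrophils of the same day. There 6 of 9 members compared were at least 2-fold higher in the macrophages, against 16.6% of all 11890 genes (16.1% were lower, 32.7% either way). Spib was 30.8-fold, Cd209a 8.21-fold, Xcr1 6.86-fold, Flt3 4.49-fold, Siglech 3.49-fold and Zbtb46 2.03-fold higher. The fold of Spib rests on a neutrophil value of 1.82, and with a pseudocount of 5 its log2 difference was 3.74 in place of 4.95. Tcf4 differed by 0.14 and Ccr9 by 0.83. Clec9a, under the minimum of 5 in both columns, was 2.85-fold lower in the macrophages. The neutrophil column itself held Csf1r at 13.27, and the part of macrophage RNA in its values was not tested.

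Other genes of plasmacytoid dendritic cells were listed to see whether they moved alike. Of 20 listed, 18 were in the table and 17 could be compared between days 2 and 4 of Ly6C high cells, and 13 of them were at least 2-fold higher on day 4 and 0 lower. The median difference was 1.39. Klk1, a kallikrein, was at 5.58 on day 4 against 2.19, and Dntt, the terminal transferase that plasmacytoid dendritic cells share with early lymphocytes, was at 6.25 against 3.13. Cd300c was at 5.74 against 3.05, Pacsin1, an endocytosis adaptor, at 6.35 against 4.28, and Ly6d at 6.77 against 4.74. Lag3, an inhibitory receptor also found on T cells, was at 9.04 against 6.07.

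On day 4, 9 of the 17 were at least 2-fold lower in Ly6C low cells and 0 higher, and the median was -1.08. Ly6d was at 0.45 there against 6.77, Dntt at 0.11 against 6.25, Pacsin1 at 0.95 against 6.35, Cd300c at 2.78 against 5.74 and Bcl11a, a transcription factor, at 4.22 against 6.21. Upb1, under the minimum, was at 0.72 against 4.62. Klk1 was listed at 0. Like Siglech, these genes were lower in Ly6C low cells. Bcl11a and Cd300c differed the least among them, by -1.99 and -2.96, against -5.52 for Siglech. By contrast, Tlr7 (10.97 against 10.33), Blnk (11.05 against 10.21), Lair1 (10.59 against 10.13) and Pld4 (12.35 against 12.29), which macrophages also express, were as high or higher in Ly6C low cells. Lag3 was close between subsets on day 4, at 8.65 against 9.04. The interferon genes Ifna1, Ifna4 and Ifna5 were listed at 0 in all 6 columns, Ifna2 reached at most 0.52 and Ifnb1 at most 1.65. Irf7, the transcription factor that drives them, was at 9.05, 9.63 and 11.13 in Ly6C high cells and at 8.52 and 10.04 in Ly6C low cells.

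**Figure D3:**
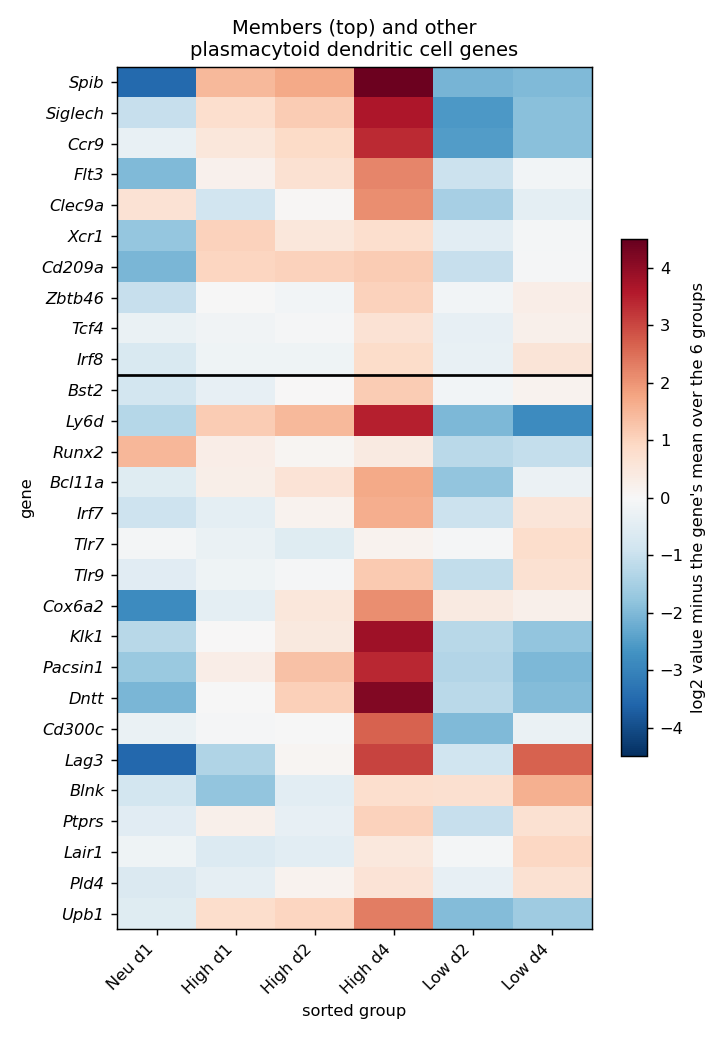
Log2 value minus the gene's mean over the 6 groups (colour) for the 10 members, above the line, and for the 18 other plasmacytoid dendritic cell genes found, below it (rows), in the 6 groups (columns). Ly6d, Klk1, Pacsin1, Dntt and Upb1 show the contrast of Spib, Siglech and Ccr9, highest in Ly6C high cells of day 4, while Blnk, Tlr7, Lair1 and Lag3 are also high in Ly6C low cells of day 4.

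Lists of the conventional branches showed less of this contrast. Of the XCR1-positive branch, 9 of 13 genes were compared between days 2 and 4 of Ly6C high cells, with 3 higher, 1 lower and a median of 0.20. The 3 were Cd8a (6.02 against 3.13), Tlr3, a receptor for double-stranded RNA (6.15 against 4.19), and Ifi205 (1.70 above its 6.30), and the lower gene was Cd24a (8.88 against 10.38). Batf3, the transcription factor that branch requires, had 4.85 on day 4 and 3.03 on day 2, both under the minimum. In Ly6C low cells Batf3 was at 5.17 on day 4 and 3.12 on day 2, a difference of 2.05. Itgae was at 3.58 and 4.00 in Ly6C high cells of days 4 and 2, against 7.86 in neutrophils. Day 4 values in Ly6C high and Ly6C low cells were 10.10 and 10.25 for Wdfy4 and 9.89 and 9.43 for Naaa. On day 4, 3 of 10 genes of this list were lower in Ly6C low cells, Cd8a (0.11 against 6.02), Ifi205 (6.03, a difference of -1.97) and Cd24a (7.67 against 8.88), and Cadm1 was higher (11.12 against 10.03), with a median of -0.18.

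Of the CD209A-positive branch, 4 of 12 were higher and none lower on day 4 than on day 2 in Ly6C high cells, with a median of 0.46, and between subsets on day 4 the counts were 1 higher and 2 lower of 12, with a median of -0.07. The 4 were Itgax, the integrin CD11c (11.66 against 9.94), Cd7 (7.76 against 6.37), Cd1d1 (6.32 against 5.05) and Mgl2 (6.87 against 5.66). In Ly6C low cells of day 4, Itgax was the 1 gene that was 2-fold higher, at 12.68, and Cd7, at 2.52, and Ltb, at 4.85 against 6.33, were the 2 lower. Mgl2, there at 7.16, and Clec10a, at 10.22 against 9.92, are lectins shared with alternatively activated macrophages. Of genes of mature dendritic cells that migrate to lymph nodes, 6 of 10 were higher on day 4 than on day 2 in Ly6C high cells, with a median of 1.39. These were Fscn1, an actin bundler (9.42 against 6.44), Ccl5 (7.28 against 4.76), Cacnb3 (6.17 against 3.72), Socs2 (6.38 against 4.19), Ccl22 (6.34 against 4.83) and Cd40 (9.46 against 8.18), whereas the homing receptor Ccr7 was at 7.28 and 7.23. On day 4, 4 of these 10 were lower in Ly6C low cells and 0 higher, with a median of -0.37, and the lower genes were Fscn1 (7.42), Socs2 (4.78), Ccl5 (6.03) and Cacnb3 (5.16).

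Regulators of dendritic cell fate were level by comparison, with 1 of 13, Kit (6.20 against 5.05), higher on day 4 than on day 2 in Ly6C high cells and a median of 0.15. Flt3l, the ligand of FLT3, lay between 5.12 and 5.44 in all 6 columns. The partners of TCF4, the E proteins Tcf3 and Tcf12, lay between 8.36 and 8.83 and between 9.29 and 9.88. Kit was also the 1 of 13 that was 2-fold lower in Ly6C low cells on day 4, at 4.98 against 6.20.

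Markers of other cells moved in the same columns as Siglech, Ccr9 and Spib. All 14 endothelial markers were at least 2-fold higher on day 4 than on day 2 in Ly6C high cells, with a median difference of 2.76, and 13 of 14 were lower in Ly6C low cells on day 4, with a median of -4.45. Their summed level in normalised reads was 1513, 1428 and 7823 in the Ly6C high columns, 887.3 and 1317 in the Ly6C low columns and 495.5 in neutrophils. No endothelial marker was at 0 in any column. Of 14 fibroblast markers, 13 were 2-fold higher on day 4, and their sums on days 2 and 4 were 1943 and 67680 in Ly6C high cells, and 388.2 and 16870 in Ly6C low cells. In Ly6C low cells, 10 of 10 compared were 2-fold lower than in Ly6C high cells on day 2, with a median of -2.40, and 14 of 14 on day 4, with a median of -2.27. Within Ly6C low cells 13 of 14 were 2-fold higher on day 4 than on day 2, where Spib and Siglech differed by 0.11 and 0.69. Tcf4 is expressed by fibroblasts and endothelial cells too, and the part of these cells in its values was not tested.

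B cell markers, relevant to Spib, summed on days 2 and 4 to 361.3 and 1550 in Ly6C high cells, and to 271.9 and 1109 in Ly6C low cells. Of the 5 B cell markers compared, 4 were 2-fold higher on day 4 than on day 2 in Ly6C high cells, with a median of 2.23, and 3 were lower in Ly6C low cells on day 4, with a median of -1.54. Ebf1 was at 7.27 in Ly6C high cells of day 4, against 3.39 on day 2 and 3.80 in Ly6C low cells, and Fcrla at 5.36, against 2.90 and 2.47. Pax5 and Ms4a1 were at 0.14 and 1.35 in Ly6C high cells of day 4, and Ighm at 10.23. The immunoglobulin gene Ighm was at 9.96 in Ly6C low cells of day 4, where Spib was at 3.34. T and NK cell markers summed to 180.4 in Ly6C high cells of day 4 and to at most 93.92 elsewhere, with Cd3e at 4.29. The part of any of these cells in the values of the members was not tested.

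**Figure D4:**
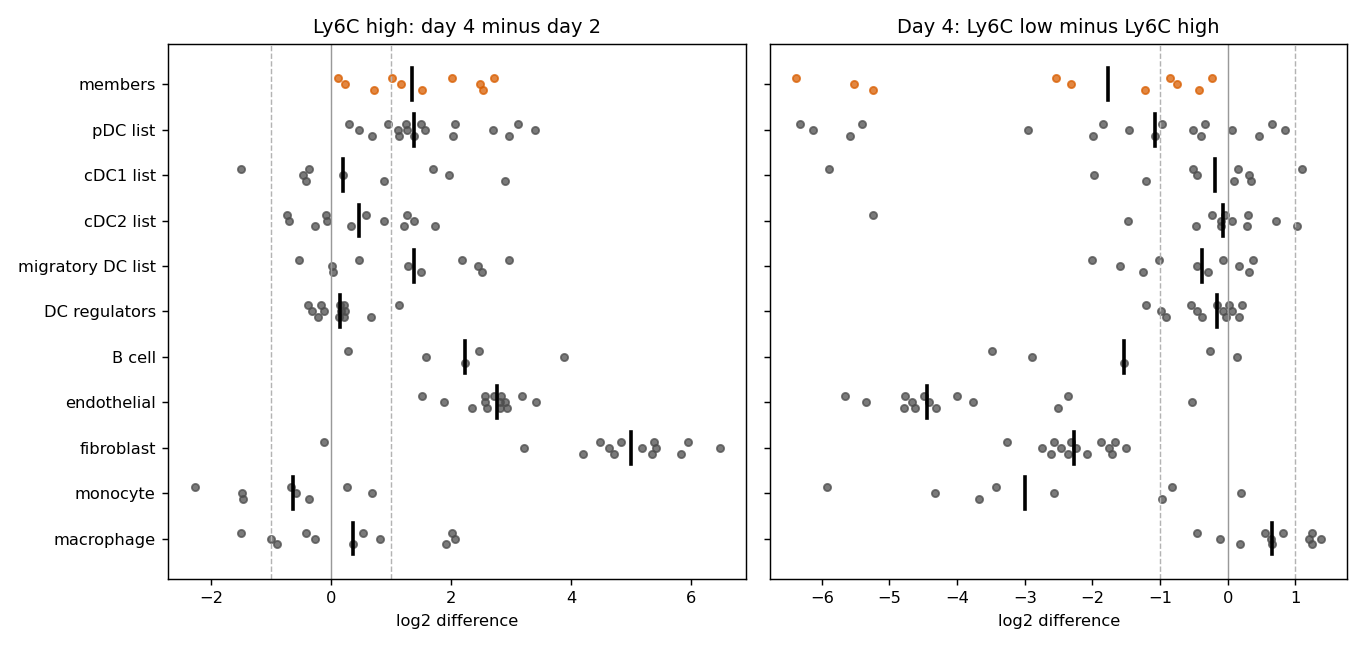
Log2 difference (horizontal axis) of each gene compared, by gene list (vertical axis), between days 4 and 2 of Ly6C high cells (left) and between Ly6C low and Ly6C high cells of day 4 (right). Points are genes, bars are list medians, and dashed lines mark 2-fold. pDC and cDC stand for plasmacytoid and conventional dendritic cells. The endothelial list has medians of 2.76 and -4.45, the members of 1.34 and -1.76, and the 3 members furthest left in the right panel are Spib, Siglech and Ccr9.

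The genes nearest in pattern to Siglech, Xcr1 and Cd209a were looked for among 13031 genes that reached 5 on the log2 scale in any column, by the same distance, leaving the members out. Nearest to Siglech were Tinagl1 at 0.44, Mmrn2 at 0.45, Sox17 and Vwa1 at 0.47 and D13ERTD608E at 0.48. Mmrn2 and Sox17 are endothelial genes. Nearest to Xcr1 were Gramd4 at 0.18, Mnda at 0.19, and Phldb1, Runx3 and Pyhin1 at 0.23. Nearest to Cd209a were Pyhin1 and Arhgef37 at 0.21, Runx3 at 0.33, Ms4a4b at 0.35 and Gramd4 at 0.36. Xcr1 and Cd209a thus shared 3 of their 5 nearest genes, and neither shared any with Siglech. The distance rests on 6 columns.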

How the data were processed

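Poly-A RNA of 17 samples was sequenced, per the labels' protocols. TopHat2 2.0.7, Cufflinks 2.0.2 and mm10 appear in the submitters' processing notes without a stated role. The annotation, like the normalization method, is not given in these sources. The deposited values are log2 normalised reads, 1 column per group, taken as the authors' group value. Whether samples of a group came from separate animals is not stated.

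The members, the gene lists and the alternatives were chosen with earlier results of these data known. No test was possible with 1 value per group, so no p-value is given. Genes reaching log2 5 in either column entered a comparison, and differences of 1 or more were counted, in 7 comparisons. No pseudocount was added, and values near 0 understate a difference. A symbol repeated in the table (3966 rows) was represented by its row of highest mean. The genes named were the 10 members, for a list up to 6 genes that differed by 2-fold in a comparison, the largest first, and the 5 nearest profiles of Siglech, Xcr1 and Cd209a. Other list genes, and markers within 2-fold, were named after their values were seen. Of the gene IDs, 95.3% were found in GENCODE M21 (GRCm38, the assembly of mm10), the source of coordinates and overlaps. Steps of low values were matched to whole reads at a relative tolerance of 2e-05, for 11.5 to 44.2% of low genes. The counting and step functions were tested on simulated data. Alternatives were a pseudocount of 5, no filter, a minimum of 7, median-ratio rescaling and quantile normalization. Python 3.11.15, numpy 2.4.6, pandas 2.3.3 and matplotlib 3.10.9 were used.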

Additional observations from a re-analysis of the deposited data

How the results depend on the processing

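Of the 31 differences of at least 2-fold among the members compared, 30 stayed past 2-fold with the same sign after median-ratio rescaling, 29 after quantile normalization and 28 with a pseudocount of 5. Those lost were of Zbtb46 (Ly6C high day 1 against neutrophils, day 4 against day 2 and day 4 against day 1, at 1.02 to 1.17 before) and, with the pseudocount, of Irf8 (day 4 against day 1), which lay at the limit. The filters change which genes are compared, and no member's difference. With a minimum of 7, the count of members 2-fold apart was 1 in place of 6 for Ly6C high day 1 against neutrophils and 3 in place of 5 between subsets on day 2, since fewer genes were compared. Between days 2 and 4 of Ly6C low cells it was 1 in place of 0 with no filter (Clec9a) and 1 after median-ratio rescaling (Cd209a, at 1.02). The other counts stayed within 1.5 times.

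Over all genes, the higher share of those 2-fold apart moved with quantile normalization from 87.7 to 62.0% between days 2 and 4 of Ly6C high cells, from 81.6 to 56.9% between days 1 and 4, from 21.4 to 38.2% between subsets on day 4 and from 81.1 to 66.7% between days of Ly6C low cells, and the median difference between days 2 and 4 from 0.01 to -0.13. With no filter it moved from 50.8 to 37.0% between Ly6C high day 1 and neutrophils. Median-ratio rescaling moved the median of all genes in that comparison from 0.08 to -0.08. Over all genes, 282 to 3886 were 2-fold apart in a comparison, 1024 to 8154 with no filter and 136 to 2556 with a minimum of 7, in each case over 1.5 times away. No paired analysis was possible because the table holds 1 value per group, and the replicate block and the leaving out of samples were not run for the same reason. Depth limits values under about 3, where a library held 7.8 to 19.4 reads.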
